A study of Caenorhabditis elegans with 2 samples.

Results

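The genes described here are 6 genes of the hypoxia response pathway of Caenorhabditis elegans, hif-1, aha-1, egl-9, vhl-1, rhy-1 and cysl-1, out of 19973 protein-coding genes in the annotation. They were read in a map of where a GFP-tagged transcription factor bound the genome. For each gene, every region was taken whose summit, the point that the deposited lists mark within a region, lay in the gene body or within 5 kb of it. The set was chosen because strong regions lie about 2 kb upstream of hif-1 and egl-9, so the signal of those regions is given as a description and was not tested. Chromatin immunoprecipitation followed by sequencing was carried out on whole L1 larvae, the first larval stage, of mixed sex. Both libraries, biological replicates 1 and 2 with 1 technical replicate each, came from strain OP355, in which the integrated transgene wgIs355 is carried with unc-119(tm4063), a mutation on chromosome III. The labels disagree on the tagged gene, with mdl-1 in the antibody and source fields and ZK337.2 in the description, and do not say which promoter drives the transgene. There was 1 group and no other condition, the age of the larvae is not known from the labels, and the control data were not analysed here.

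As background, HIF-1 is the hypoxia-inducible transcription factor of the worm. It pairs with AHA-1, the counterpart of mammalian ARNT, and the pair binds short sites with a core that reads ACGTG or else GCGTG. While oxygen is present, the prolyl hydroxylase EGL-9 modifies HIF-1, and VHL-1, the substrate receptor of a ubiquitin ligase, marks the modified protein for destruction. RHY-1, a membrane protein related to acyltransferases, also keeps HIF-1 activity low. CYSL-1, a relative of cysteine synthases, acts the other way by binding and inhibiting EGL-9. MDL-1, 1 of the 2 proteins that the labels name, belongs to the basic helix-loop-helix leucine zipper family, whose members bind E-boxes such as CACGTG.

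The sequences of the 2 strongest regions are given first, because the set was chosen on them, with 2 weaker ones that also hold a marked sequence. All are plus-strand sequences of assembly WBcel235 (ce11) from RefSeq. Capitals mark an E-box (CACGTG, and on either strand the variant CATGTG) or the word TCTGCGTCTC, which the regions upstream of hif-1, egl-9 and cysl-1 share. The strongest regions of vhl-1, rhy-1 and aha-1 lack that word within 170 bp of the summit and are not printed. The hif-1 stretch is chrV:20778308-20778483, from 100 bp before to 75 bp after the summit, in intergenic sequence. The egl-9 stretch is chrV:10466677-10466827, 75 bp either side of the summit, and lies in exons of 2 non-coding genes on opposite strands, F22E12.9 and F22E12.10. The cysl-1 stretch is chrX:9958665-9958845, in intergenic sequence. The stretch from a hif-1 intron is chrV:20782361-20782471.
hif-1 upstream: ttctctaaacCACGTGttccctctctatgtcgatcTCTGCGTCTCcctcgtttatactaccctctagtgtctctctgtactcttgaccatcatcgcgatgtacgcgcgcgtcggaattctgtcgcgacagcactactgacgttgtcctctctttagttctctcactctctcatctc
egl-9 upstream: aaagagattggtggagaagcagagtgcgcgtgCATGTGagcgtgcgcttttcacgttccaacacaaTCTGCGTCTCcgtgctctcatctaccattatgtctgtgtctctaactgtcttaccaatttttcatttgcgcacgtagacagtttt
cysl-1 upstream: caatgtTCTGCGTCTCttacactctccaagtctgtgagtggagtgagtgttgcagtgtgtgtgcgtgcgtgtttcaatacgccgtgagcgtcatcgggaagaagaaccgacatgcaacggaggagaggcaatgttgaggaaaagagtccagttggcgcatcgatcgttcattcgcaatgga
hif-1 intron: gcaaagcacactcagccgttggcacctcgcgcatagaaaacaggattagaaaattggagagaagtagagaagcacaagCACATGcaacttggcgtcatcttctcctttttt

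Strong binding was found upstream of hif-1 and of egl-9, and the other 4 genes had weak regions alone. The pooled list held 30000 regions, each with a signal, the authors' own value, which is above 0 throughout; how it was scaled is not given here. Within the 6 windows, 81.5 kb in sum, lay 27 pooled regions. There were 7 at egl-9, 6 at vhl-1, 5 at hif-1, 4 at cysl-1, 3 at aha-1 and 2 at rhy-1. Per kb that was 0.331 regions in the windows and 0.299 over the 6 chromosomes. The median signal was 20.5 in the windows, against 20.3 over all pooled regions, so most regions near the pathway genes were as weak as most regions of the list.

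The authors' thresholded list holds the 259 strongest pooled regions, and 2 of the 27 regions in the windows were in it, 7.41% (95% exact Clopper-Pearson interval 0.910% to 24.3%), against 0.863% of all pooled regions. By gene, 2 of 6 pathway genes had a thresholded region, 33.3% (interval 4.33% to 77.7%), against 2.98% of all protein-coding genes. The 2 were hif-1 and egl-9, the genes on which the set was chosen, so nothing is read from these shares. Intervals cover counting error only, and the depth of the libraries is unknown, as no read counts were given. The lowest signal in the thresholded list was 49.8 and the highest outside it 49.7. Of the regions in the windows, the nearest below that edge was the intron region of hif-1, at 43.5. In whole larvae, strong binding in few cells and weaker binding in many cannot be told apart.

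**Figure D1:**
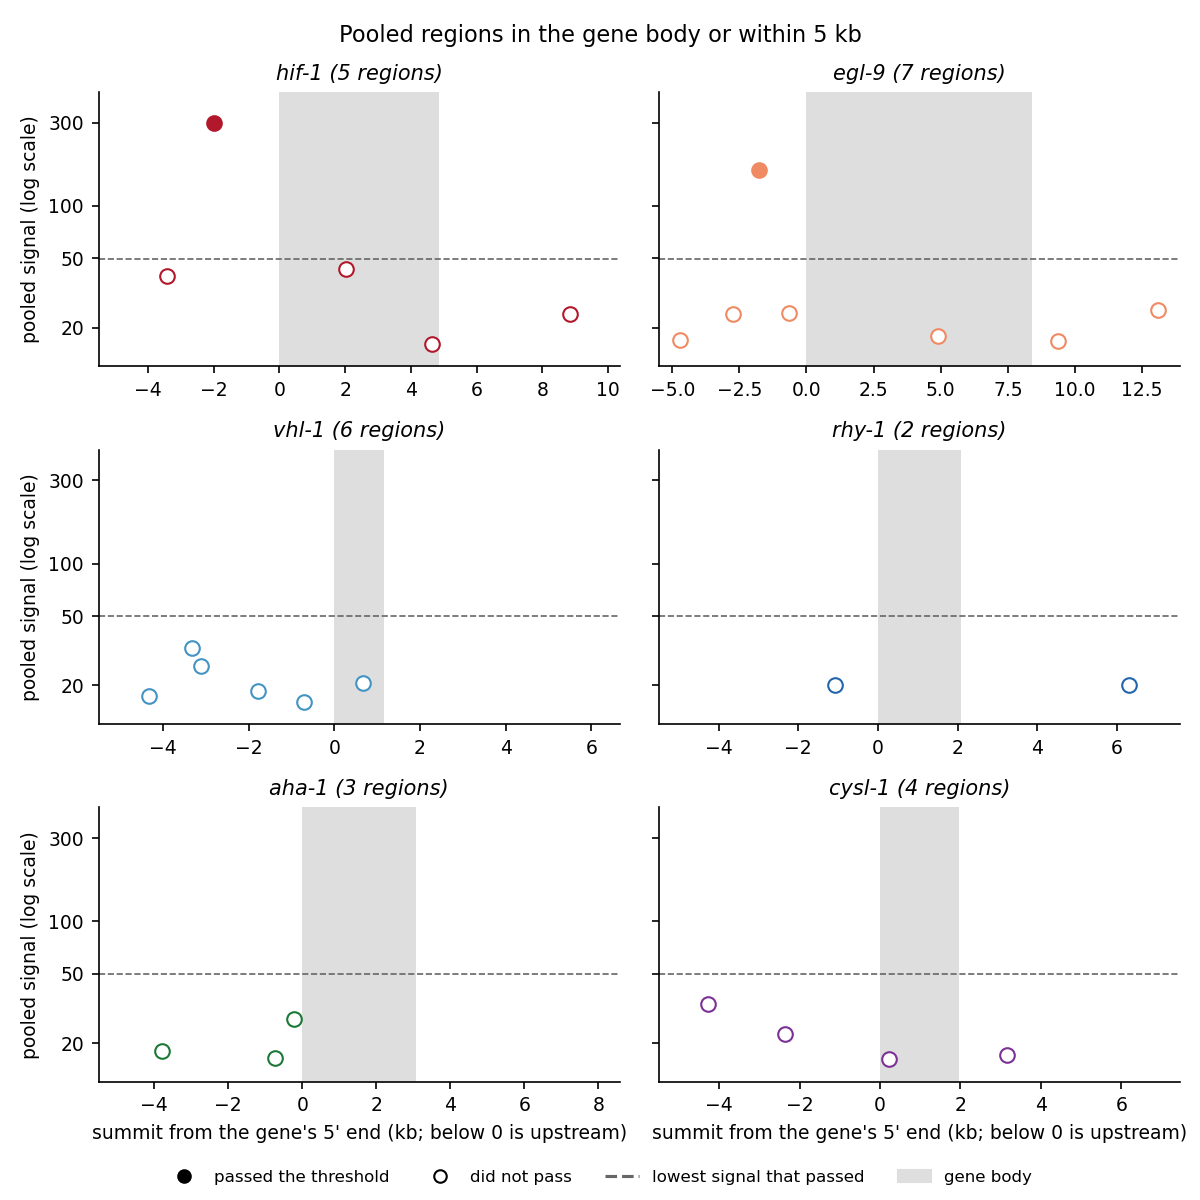
Pooled regions at each gene, with the distance of the summit from the gene's 5′ end in kb on the x axis and the pooled signal on a log scale on the y axis; grey marks the gene body and the dashed line the lowest signal that passed the threshold. The 2 filled points, at 299.5 for hif-1 and 159.8 for egl-9, lie upstream of the gene bodies, and the 25 open points lie between 16.1 and 43.5.

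hif-1 (WBGene00001851) spans 20780407 to 20785260 on the plus strand of chromosome V and has 6 annotated transcripts. Its strongest region, from 20778337 to 20778445, peaked at 20778408, which is 1999 bp before the start of the gene. The signal was 299.5 in the pooled list, where it ranked 3. It was 144.6 in replicate 1, rank 7, and 156.9 in replicate 2, rank 3. Both replicates thus placed it among their 10 strongest regions, and the replicate summits lay 1 bp and 11 bp from the pooled one. The nearest other gene, F38A6.4, begins 3039 bp away, so hif-1 has the nearest 5′ end. The pooled region was 109 bp wide, against the usual 340 bp. Only 10 of the 30000 pooled regions were narrower than that width, and all 10 passed the threshold.

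The second region of hif-1 lies inside the gene. Its summit at 20782436 is in an intron for the longer transcripts and 36 bp before the start of the short transcript F38A6.3c. Its signal was 43.5 in the pooled list, rank 372. The replicates differed here: the signal was 35.4 in replicate 2, rank 161, and 11.8 in replicate 1, rank 19958, a ratio of replicate 2 to replicate 1 of 3.01. Among the 255 thresholded regions matched in both replicates, the ratio had a median of 1.08 and quartiles of 0.805 and 1.44. In replicate 2 taken alone, this region was among the 259 strongest.

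Another 3 regions completed the hif-1 window. One, 3433 bp upstream, had a signal of 39.4, rank 562, with 19.2 in replicate 1 and 18.04 in replicate 2. Its nearest 5′ end is that of F38A6.4, 1605 bp away. A region 8840 bp downstream of the 5′ end of hif-1, in an intron of Y44A6D.1, had a signal of 23.8, with 13.6 in replicate 1 and 10.5 in replicate 2. The last, in the 3′ UTR of hif-1, had a signal of 16.1, rank 29351, with a match in replicate 1 and none in replicate 2. Each replicate list had 7 regions in the window.

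egl-9 (WBGene00001178) spans 10468517 to 10476915 on the plus strand of chromosome V, with 7 annotated transcripts. Its strongest region, 10466582 to 10466921, peaked at 10466752, which is 1765 bp before the start of the gene. The pooled signal was 159.8, rank 24. Replicate 1 gave 70.4, rank 32, and replicate 2 gave 85.8, rank 21, with both summits 5 bp from the pooled one. The signal was 0.534 times that at hif-1 in the pooled list, 0.487 times in replicate 1 and 0.547 times in replicate 2, and the region was in the top 50 of each list. The summit falls within the overlapping non-coding genes F22E12.9 and F22E12.10, and the next protein-coding 5′ end besides that of egl-9 is that of F22E12.3, 3376 bp away.

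The other 6 regions of egl-9 had signals of 16.8 to 25.4, and none passed the threshold. The region closest to the 5′ end, 660 bp upstream, differed between the replicates. It had 26.9 in replicate 1, rank 323, no match in replicate 2, and 24.1 in the pooled list, rank 7564. One region, 4915 bp into the gene, lay in a coding exon and 99 bp past the start of the internal transcript F22E12.4c, with a signal of 17.9. The remaining regions were nearer to other genes, such as F22E12.3, crp-1 and Y32F6B.9, or in the body of chw-1, which encodes a small GTPase.

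**Figure D2:**
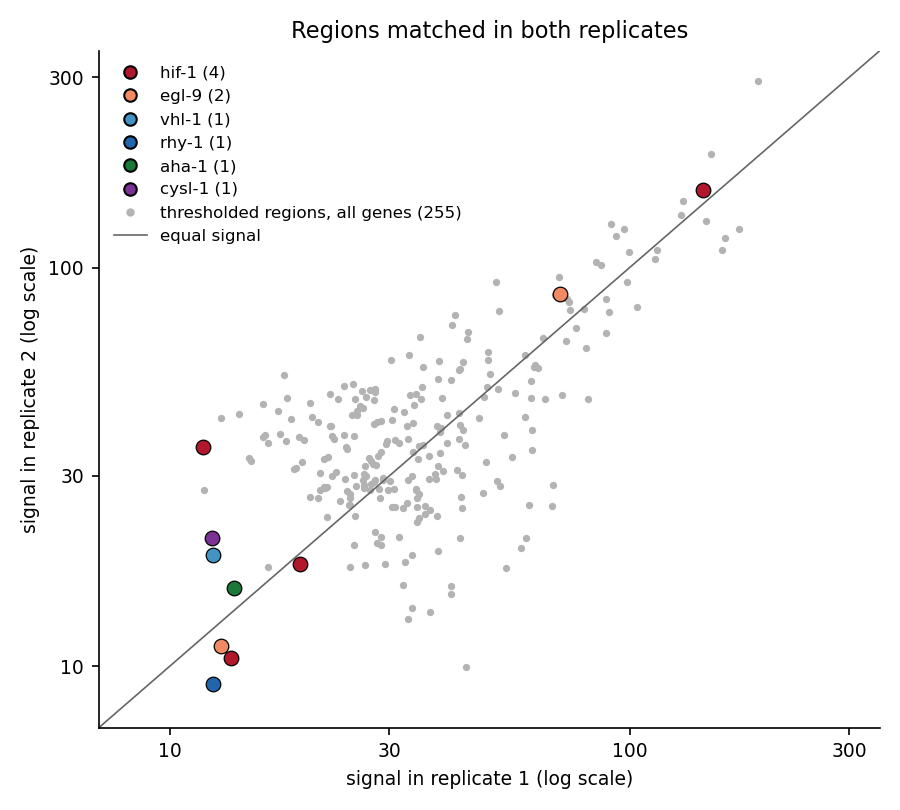
Signal in replicate 1 (x axis) and in replicate 2 (y axis), both on log scales, for the 10 regions of the pathway genes matched in both replicates and, in grey, the 255 thresholded regions matched in both. The strongest regions of hif-1 (144.6 and 156.9) and egl-9 (70.4 and 85.8) lie near the line of equal signal, and the intron region of hif-1 (11.8 and 35.4) lies well above it.

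Both strong regions were matched in both replicates, and so were 8 of the 25 weaker ones. A pooled region was matched when a replicate summit lay at most 200 bp away. Of the 27 regions, 20 were matched in replicate 1, 15 in replicate 2, 10 in both and 2 in neither. The share matched in both was 37.0% (interval 19.4% to 57.6%), against 24.9% of all pooled regions, 98.5% of thresholded regions and 2.87% of pooled regions moved by 10 kb. The replicates built the pooled list, so these shares describe agreement and are no test of it. Each replicate list also had regions in the windows with no pooled match, 13 of 33 in replicate 1 with signals up to 15.1 and 9 of 23 in replicate 2 with signals up to 13.0. At the strong regions the sum of both replicates was 1.01 times the pooled signal for hif-1 and 0.978 times for egl-9, against a median of 0.990 over thresholded regions.

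AHA-1 is the partner of HIF-1, and its gene had one weak region close to its 5′ end. aha-1 (WBGene00000095) spans 10193925 to 10196997 on the minus strand of chromosome I. The region, with its summit 229 bp upstream, had a signal of 27.6, rank 3885, with 13.8 in replicate 1, rank 11859, and 15.7 in replicate 2, rank 3667. The same summit is 95 bp from the 5′ end of C25A1.15, the neighbouring gene, so the lists do not say to which of the 2 genes it belongs. The other 2 regions had signals of 17.9 and 16.4 and were each matched in 1 replicate. The nearest thresholded region was 324.6 kb from the gene body.

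vhl-1 (WBGene00006922), whose product recognises hydroxylated HIF-1, spans 11307356 to 11308518 on the plus strand of chromosome X. It had 6 pooled regions. The strongest, 3310 bp upstream in a coding exon of F08G12.1, had a signal of 32.8, rank 1428. Replicate 1 gave 12.4 there, rank 16937, and replicate 2 had 19.1, rank 1330, with its summit 195 bp away. That replicate 2 summit is 7 bp from the summit of the next pooled region, 3108 bp upstream, which had a pooled signal of 25.8 and no match in replicate 1. The 2 neighbouring pooled regions therefore share 1 region of replicate 2. In the gene body, 674 bp from the 5′ end, lay a region of 20.5 that replicate 1 alone matched, at 14.2. The nearest thresholded region lay 213.2 kb from the gene body.

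rhy-1 (WBGene00012324) spans 9161379 to 9163448 on the plus strand of chromosome II and its strongest region was the lowest among those of the 6 genes. Its 2 pooled regions had signals of 20.2, rank 15477, and 20.1, rank 15510, both near the median of the list. The first lies 6288 bp downstream of the 5′ end of rhy-1, in a coding exon of T23G7.3 and 163 bp from that gene's own 5′ end. The second lies 1075 bp upstream of rhy-1, with 10.9 in replicate 1 and no match in replicate 2. Replicate 1 had 5 regions in the window and replicate 2 had 1.

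cysl-1 (WBGene00007653) spans 9952579 to 9954533 on the minus strand of chromosome X. Its strongest region, 4282 bp upstream, had a signal of 33.7, rank 1217. It had 20.9 in replicate 2, rank 839, and 12.4 in replicate 1, rank 17218. The summit lies 145 bp before the 5′ end of ZC506.1, much closer to it than to cysl-1. A region 2373 bp upstream had 22.6, with a match of 15.3 in replicate 1 alone. Within the gene, 215 bp from the 5′ end in an intron, lay a region of 16.2, rank 29092, that neither replicate matched.

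Ordered by the strongest pooled region in the window, the genes were hif-1 at 299.5, egl-9 at 159.8, cysl-1 at 33.7, vhl-1 at 32.8, aha-1 at 27.6 and rhy-1 at 20.2. The steps between the first 3 are wide. At the last 4 regions, in that order, replicate 1 gave 12.4, 12.4, 13.8 and 12.4, and replicate 2 gave 20.9, 19.1, 15.7 and 9.01. Their order in the pooled list was therefore that of replicate 2 and not that of replicate 1. Among all 19973 protein-coding genes, 99.98% had a lower strongest signal than hif-1, 99.7% than egl-9, 86.1% than cysl-1, 83.8% than vhl-1, 61.2% than aha-1 and 14.7% than rhy-1. The median gene had 25.9 and the upper quartile was 30.3. For the weak genes these shares depended on the library: in replicate 1 they were 37.9% for cysl-1, 28.1% for vhl-1, 23.9% for aha-1 and 13.2% for rhy-1, and in replicate 2 they were 90.4%, 84.96%, 62.7% and 5.09% in the same order. In replicate 1 alone, all 4 genes thus stood below the median gene. There the strongest region of cysl-1, at 15.3, and of vhl-1, at 14.2, was not the one matched to the strongest pooled region. hif-1 had 99.95% and egl-9 99.7% in replicate 1, and hif-1 had 99.98% and egl-9 99.8% in replicate 2. A window shared with neighbouring genes gives them the same region. The strongest pooled regions of cysl-1, vhl-1, aha-1 and rhy-1 were all nearer to another protein-coding gene's 5′ end.

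**Figure D3:**
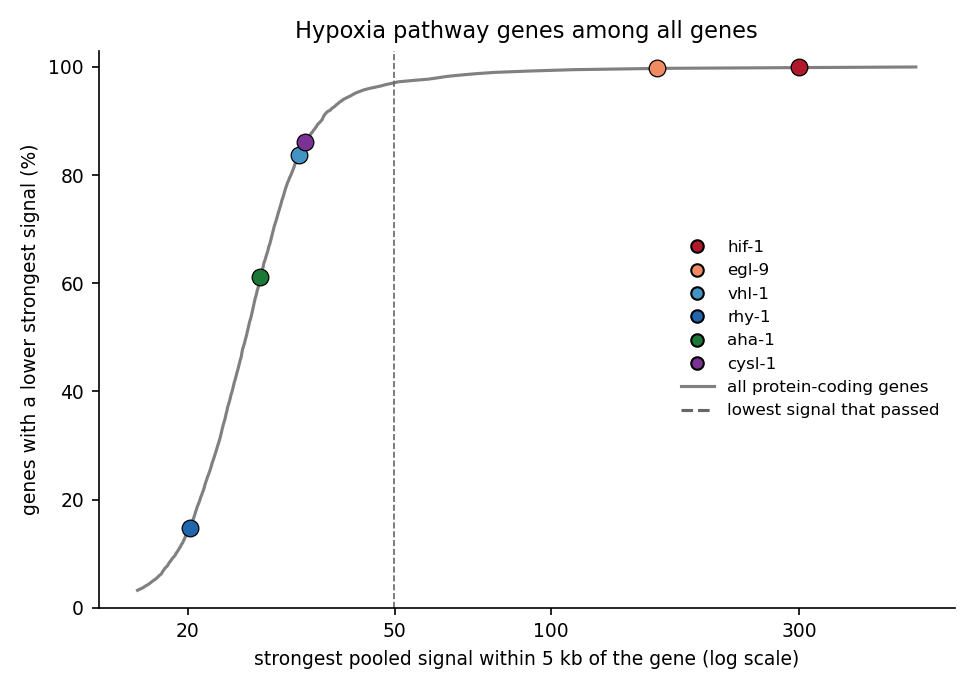
Share of all protein-coding genes with a lower strongest signal (y axis, percent) against the strongest pooled signal within 5 kb of the gene (x axis, log scale), with the 6 pathway genes marked. hif-1 (299.5) and egl-9 (159.8) stand right of the lowest signal that passed, 49.8, and the other 4 genes stand between 20.2 and 33.7 on the steep part of the curve.

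By position, 17 of the 27 regions lay upstream of the 5′ end, 5 in the gene body and 5 downstream of it. Their summits were intergenic in 12, in introns in 6, in coding exons in 6, in non-coding genes in 2 and in a 3′ UTR in 1. The 2 strong regions share a distance of 1.5 to 2.5 kb upstream of the nearest protein-coding 5′ end, which the choice of the set used. Such a position was held by 15 of the 259 thresholded regions, 5.79%, and 47.9% lay within 1000 bp of the nearest protein-coding 5′ end. The 5 other genes of highest signal at that distance were nhr-34, a nuclear receptor gene (205.5, 2149 bp upstream), ogt-1, which encodes the O-GlcNAc transferase (182.2, 2073 bp), col-94, a collagen gene (85.4, 1723 bp), atgl-1, a triglyceride lipase gene (84.8, 1754 bp), and sup-26 (82.0, 1933 bp). mdl-1, 1 of the 2 genes that the labels name as tagged, was among the 15, with a region of 68.3 at 1611 bp upstream.

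Of 21 further pathway genes in 4 lists, 0 had a thresholded region within 5 kb, against 2.98% of all protein-coding genes. These lists were chosen with earlier results of the data known. The strongest signal per gene ranged from 18.5 to 34.8 with a median of 26.5, against 25.9 for all genes. Among the 4 subunits of the VHL ubiquitin ligase, elc-1, an elongin C gene, had 28.2 and rbx-1, a RING subunit gene, had 26.5. Of 4 further regulators or partners, hlh-34 had 31.3 and ahr-1, the aryl hydrocarbon receptor gene, 29.8. Of the 3 other cysteine synthase-like genes, cysl-2 had 28.6 and cysl-3 had 20.7. Of 10 genes known as HIF-1 targets or for sulfide handling, cdo-1, which encodes cysteine dioxygenase, had 34.8 at 517 bp upstream, and ethe-1, a sulfur dioxygenase gene, had 32.5. Apart from that of cdo-1, the regions named from these 4 lists lay nearer to the 5′ end of another protein-coding gene. Those of elc-1 and rbx-1 had no match in replicate 1. For comparison, 1 of 5 genes of the MDL-1 network had a thresholded region, mdl-1. Next in that network, mml-1 had 47.3, rank 289, at 1910 bp upstream, with 27.5 in replicate 1 and 24.8 in replicate 2. mdl-1 had the strongest region of the whole list at 503.3, 97 bp upstream, and 8 thresholded regions in its window. Some labels name mdl-1 as the tagged gene of the transgene, and the part of the transgene in these values was not tested. Of the pathway genes, vhl-1 and cysl-1 lie on the same chromosome as mdl-1, at 4.57 Mb for vhl-1 and 3.21 Mb for cysl-1.

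The letters around the summits differed between the 2 strong regions. Each was searched on both strands, where ACGTG is part of both CACGTG and the longer TACGTG. Upstream of hif-1, CACGTG begins 90 bp before the summit, at 20778318 to 20778323. It lies outside the narrow pooled region and the narrow replicate 2 region, but inside the wider replicate 1 region, 20778244 to 20778573. Within 50 bp of the pooled summit neither E-box form nor either form of the hypoxia core was found. Upstream of egl-9, CATGTG begins 43 bp before the summit, ACGTG 24 bp before it on the minus strand, and GCGTG at 48 and 36 bp before it. The egl-9 summit window thus held both forms of the hypoxia core and an E-box variant, and the hif-1 window held neither. Within 50 bp, GCGTG was also found at the strongest regions of vhl-1 and aha-1, and none of these 4 motifs at those of cysl-1 and rhy-1.

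Over all 27 regions in the windows, CACGTG was within 50 bp of 1 summit, 3.70%, against 25.1% of thresholded and 2.49% of all pooled regions. CATGTG was within 50 bp of 4 of 27, 14.8%, against 9.65% of thresholded and 3.50% of all pooled regions. ACGTG was at 5 of 27, 18.5%, against 33.6% and 9.53%, and GCGTG at 3 of 27, 11.1%, against 27.4% and 6.30%. TACGTG was at 2 of 27, 7.41%, against 1.54% and 2.04%, and GAGAGAG at none, against 17.4% and 2.01%. With 27 regions these shares rest on counts of 5 or fewer. GC content within 50 bp of the strongest summit was 51.5% at hif-1, 48.5% at egl-9, 51.5% at cysl-1, 46.5% at vhl-1, 39.6% at rhy-1 and 38.6% at aha-1. Its median was 49.5% in thresholded and 35.6% in all pooled regions. The part of base composition in the motif shares was not tested.

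The longest word shared by the sequences within 170 bp of the hif-1 and egl-9 summits has 11 letters, TCTGCGTCTCC, and its first 10 letters also occur in the cysl-1 window. Over the 15 pairs of the 6 strongest regions, the longest shared word had a median of 9 letters. It was longest, at 13 letters, between egl-9 and aha-1. The 10 letters begin 65 bp before the summit at hif-1, 9 bp before it at egl-9 and 144 bp before it at cysl-1. The word was chosen after the sequences were seen, from 2 thresholded regions. Within 170 bp it occurred in 52 of 259 thresholded regions, 20.1% (interval 15.4% to 25.5%), hif-1 and egl-9 included, against 1.64% of the pooled regions that did not pass. CACGTG in the same window was in 37.5% and 6.52%. Both sequences were more frequent at the stronger regions, with the word at 17 of the 50 strongest regions and in 1.34% of ranks 5001 to 30000. The thresholded regions with the word also included those nearest to aakg-1 (340.2), T04C4.3 (274.3) and ogt-1 (182.2), and 24 of the 52 held CACGTG as well, hif-1 among them and egl-9 not.

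**Figure D4:**
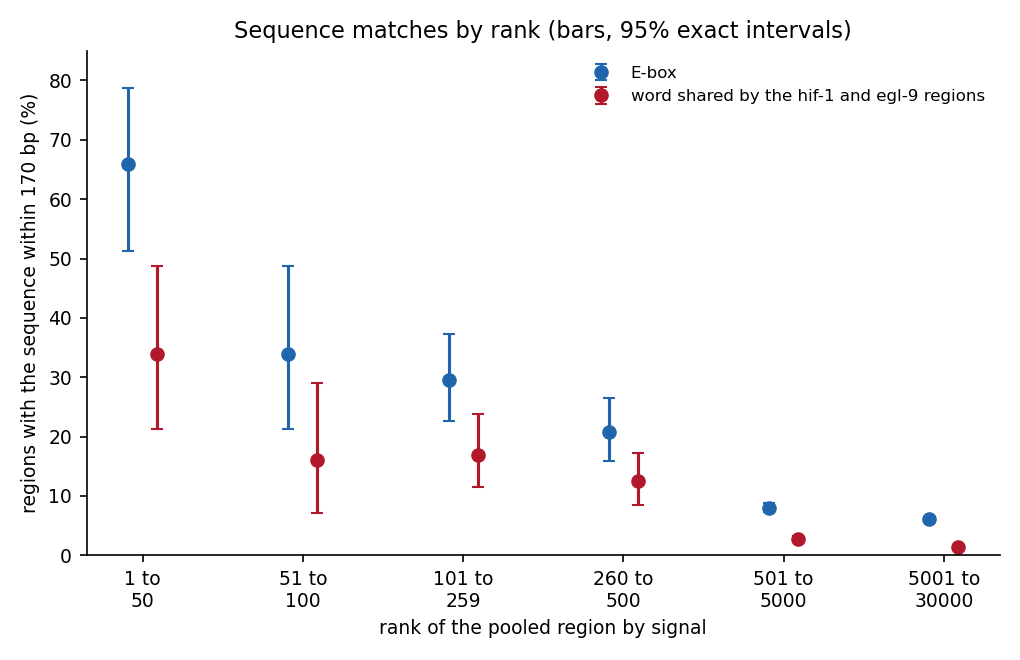
Share of pooled regions (y axis, percent, with 95% exact intervals) with CACGTG, labelled E-box, or with the 10-letter word within 170 bp of the summit, by rank of signal (x axis). In ranks 1 to 50, where the strongest regions of hif-1 and egl-9 fall, CACGTG was at 33 regions and the word at 17, and in ranks 5001 to 30000 the shares were 6.11% and 1.34%.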

How the data were processed

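The deposited files are lists of regions for 2 builds, ce11 and ce10, with a relaxed list of 30000 regions for each replicate and for both pooled, and a thresholded list. The readme texts, deposited beside them, name alignments and a control as what the regions came from. The lists were made for an irreproducible discovery rate procedure, per their deposited names. The signal of a region is the authors' deposited value. Aligner, peak caller, versions, threshold and scaling were not given in the sources used here. Depth is unknown, so intervals cover counting error only.

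Regions were read in ce11, the same assembly as WBcel235, with genes from Ensembl release 115 and 1-based coordinates. Windows ran 5 kb either side of the gene body, ranks followed signal, and matches needed summits at most 200 bp apart. No statistical test was made: signal chose the members, and there is 1 group. Members and gene lists were chosen with earlier results of these data known. Genes named besides the 6 were neighbours of regions, up to 2 per list by signal, and the 5 strongest at a like distance. The regions near aakg-1, T04C4.3 and ogt-1 were named for the shared word after their values were seen. Offsets upstream of the 5′ end and the motif search were tested on simulated positions and sequences. The window limits were checked only on the upstream side, by a rule restated for the check, so the window counts themselves were not tested. Reading of the region lists and matching between replicates were not tested in that way. Tools were Python 3.11.15, pandas 2.3.3, numpy 2.4.6, scipy 1.17.1 and matplotlib 3.10.9.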

Additional observations from a re-analysis of the deposited data

How the results depend on the processing

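The count of 2 pathway genes with a thresholded region, hif-1 and egl-9, was the same with windows of 2 kb or 10 kb. It was also the same by any overlap, by nearest 5′ end and with RefSeq gene positions. With the 130 or 500 strongest pooled regions in place of the thresholded list, it was 2 again. So it was without either replicate, that is, with strong regions of the other replicate alone. The set was chosen on these 2 strong regions, so the count could hardly fall and nothing is read from its sameness. At 2 kb the hif-1 summit, 1999 bp upstream, lay just inside the window. The share of all protein-coding genes moved to 1.78% with 2 kb, 4.94% with 10 kb, 1.43% with the 130 strongest and 5.71% with the 500 strongest, and was 2.81% to 3.07% by overlap or without a replicate. The count of such regions in the windows was 3 with the 500 strongest pooled regions and without replicate 1, and 2 otherwise. The intron region of hif-1 joined in those 2 settings and is not in the thresholded list itself. The further pathway lists had none under the window, list and replicate alternatives run. The share of regions matched in both replicates was 14.8% with summits at most 50 bp apart, against 11.2% of all pooled regions. It was 22.2% against 17.1% at 100 bp, and 26.7% with 2 kb and 30.4% with 10 kb, both against 24.9%. In the 5000 strongest of each list it was 42.9% (3 of 7) against 13.3%. Those 3 include the strong hif-1 and egl-9 regions on which the set was chosen, so nothing is read from that share. Without 1 replicate, the rank is that of the region in the other replicate matched to the strongest pooled region. It ran from 3 to 7 for hif-1, 21 to 32 for egl-9 and 1330 to 16937 for vhl-1. It ran from 17175 to 25333 for rhy-1, 3667 to 11859 for aha-1 and 839 to 17218 for cysl-1. For vhl-1, aha-1 and cysl-1 the lower number is the rank in replicate 2. Replicate 1 had a stronger region elsewhere in the window of vhl-1, at rank 10522, and of cysl-1, at rank 7927. Within 100 bp of the summit, CACGTG was found at 1 strongest region and ACGTG or GCGTG at 5, since the wider window holds more sequence. The 10-letter word, an alternative chosen after seeing the data, was at 3 strongest regions within 170 bp, and at 1 within 50 bp or 25 bp. In the ce10 list the regions were picked out by their signal, so ranks of 3 for hif-1 and 24 for egl-9 were nearly fixed by that choice. The depth of the libraries is unknown. No paired analysis was possible because the labels give a single group, with nothing to set it against.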
